A study of Rattus norvegicus and Mus musculus with 18 samples.

Results

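Neurofilament and neuronal genes were followed through the tissues of the early metanephric kidney: Nefl and Nefm, which encode the light and medium neurofilament subunits, Ina, which encodes the related subunit alpha-internexin, the beta-tubulin genes Tubb3 and Tubb2b, Stmn2, which encodes the microtubule regulator stathmin 2, and Gap43, which encodes a growth cone protein. All probe sets annotated to exactly one of these symbols were used, whatever their values. They were 22 probe sets for 7 genes of 19333 annotated in the series, 11 on the mouse array and 11 on the rat arrays. A further mouse probe set that names Tubb2b together with another symbol was not used.

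The study measured RNA from the separated tissues of embryonic kidneys on Affymetrix oligonucleotide arrays. In mouse, at E12.5 (embryonic day), the groups were ureteric bud tips (a pool of about 1000), ureteric bud stalks (about 350) and metanephric mesenchymes (about 300), each on 2 arrays. In rat, at E13.5, they were whole ureteric buds (about 1200) and metanephric mesenchymes (about 240), each on 2 arrays of each of 3 designs, the first design and those named B and C. Tissues of both species were loosened with DNase and trypsin for 10 min, separated with pins and checked by lectin staining of the bud, and 1 ug of total RNA was labelled. No treatment or genotype separates the groups, and strain and sex were not given in the sources used here. The labels describe the 2 arrays of a tissue as repeat labellings of its RNA, so standard deviations and p-values below measure the spread of labelling and hybridisation and not that between embryos.

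Neurofilaments are the intermediate filaments of neurons. They are built mainly from light, medium and heavy subunits, with alpha-internexin as a further partner in developing neurons, and they fill and widen axons. Growing axons also hold microtubules rich in neuronal beta-tubulins, which stathmin 2 helps to keep dynamic, and carry the membrane protein GAP-43 at the growth cone. In the kidney, sympathetic and sensory nerve fibres enter along the vessels and reach the stroma, while ureteric bud epithelium builds its filaments from keratins and mesenchymal cells build theirs from vimentin. Neurofilament and stathmin 2 transcripts are therefore usually read as neuronal, whereas Tubb2b and Gap43 are known from several kinds of immature cell.

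RefSeq promoter sequences, from 250 bases before to 50 bases after the gene start on the rat GRCr8 assembly, were at hand for 3 of the 7 genes. Those of the tubulin pair are shown because Tubb2b is the gene that was called in rat on 2 array designs, and Tubb3 is its relative that reached no test there. Capitals mark the CCAAT box letters, which both promoters hold on the reverse strand as ATTGG. The Tubb2b promoter lies at chr17:30952836-30953135 on the plus strand, and the Tubb3 promoter at chr19:68365437-68365736 on the plus strand.
Tubb2b: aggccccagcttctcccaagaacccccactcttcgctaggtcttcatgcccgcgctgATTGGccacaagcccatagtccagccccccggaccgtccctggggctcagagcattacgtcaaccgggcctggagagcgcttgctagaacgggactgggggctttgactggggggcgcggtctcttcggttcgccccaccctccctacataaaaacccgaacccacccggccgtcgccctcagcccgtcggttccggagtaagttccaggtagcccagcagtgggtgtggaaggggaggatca
Tubb3: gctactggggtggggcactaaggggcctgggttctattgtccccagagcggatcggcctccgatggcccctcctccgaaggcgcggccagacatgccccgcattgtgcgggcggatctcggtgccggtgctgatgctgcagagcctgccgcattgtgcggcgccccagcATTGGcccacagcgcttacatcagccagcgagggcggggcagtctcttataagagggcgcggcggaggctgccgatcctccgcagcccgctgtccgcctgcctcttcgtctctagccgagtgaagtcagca

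The CCAAT letters start at position -193 of the Tubb2b promoter and at position -81 of the Tubb3 promoter, counted from the gene start. On either strand, CCAAT stands in 37.5% of the 33469 rat promoters of the same length. Neither promoter holds TATAAA, which stands in 14.2% of them, and neither holds the E-box letters CANNTG, which stand in 72.1%. Letters from either end of the RE1 element, the target of the neuronal gene repressor REST, were searched as CAGCACC and GGACAG. The Tubb3 promoter holds CAGCACC at -125 and GGACAG at 8, both on the reverse strand and far apart. The Tubb2b promoter holds neither. CAGCACC stands in 6.78% of all promoters and GGACAG in 21.7%. These matches describe letters only, and a whole RE1 element was not searched for.

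Repeat arrays of one mouse tissue correlated at 0.993 to 0.998 over all probe sets, those of rat buds at 0.981 to 0.985 and those of rat mesenchyme at 0.993 to 0.996. The second rat bud array of each design stood apart: the ratio of the 3′ to the 5′ Gapdh control, a sign of RNA integrity and labelling, was 4.26 to 5.28 there and 1.25 to 1.47 on the other rat arrays. The tissue labels were borne out by their markers in mouse. The summed intensity of 6 bud markers was 22081 to 22837 in tips and 11184 to 11338 in stalks, against 441 to 503 in mesenchyme. The sum of 5 nephron progenitor markers was 429 to 509 in tips and 1538 to 1596 in stalks, against 5015 to 5127 in mesenchyme. The stalk pool also held stromal transcripts, since the sum of 6 stromal markers was 6967 to 7182 in stalks and 380 to 554 in tips, against 5654 to 5664 in mesenchyme. In rat, on the first design, the 4 bud markers on the array summed to 3181 to 3183 in buds against 270 to 271 in mesenchyme, and the 5 stromal markers on it to 503 to 565 in buds against 2358 to 2700 in mesenchyme. Single bud markers varied more between the 2 bud arrays than their sum did. Ret averaged 1596 ± 415, Epcam 1189 ± 250 and Krt8 352 ± 178 there (SD, n = 2 each).

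In mouse, transcripts of Nefl, Nefm and Stmn2 fell in tips relative to mesenchyme with all 5 of their probe sets. Those of Nefl and Stmn2 also fell in stalks relative to mesenchyme, and Nefm and 1 of the 2 Nefl probe sets fell in tips relative to stalks. Intensities here are normalised probe-set intensities in the array's arbitrary units, and a difference is on the log2(intensity + 16) scale, which understates the change of dim probe sets. A probe set was tested when at least 1 tissue mean reached the median of its table (49.5 in mouse), and it was called at an adjusted p under 0.05 over all tested probe sets, by limma, with a difference of at least 2-fold. Of the 11 mouse probe sets, 8, in 6 genes, were tested. Between tip and mesenchyme, 5 of the 8 were called, all lower in tips, where 8.16% of all tested probe sets were called, 3.9% higher and 4.27% lower. Between tip and stalk, 2 of the 8 were called, both lower in tips, where 4.59% of all were called, 0.953% higher and 3.63% lower. Between stalk and mesenchyme, 4 of the 8 were called, all lower in stalks, where 2.77% of all were called, 2.34% higher and 0.426% lower. The median difference of the 8 was -2.23 for tip over mesenchyme, -0.77 for tip over stalk and -1.04 for stalk over mesenchyme, beside medians of 0.01, 0.06 and -0.05 over all tested probe sets. The comparisons share arrays, and probe sets that reached the filter only through mesenchyme had to differ from it, so these counts are a description of the 8 that passed.

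**Figure D1:**
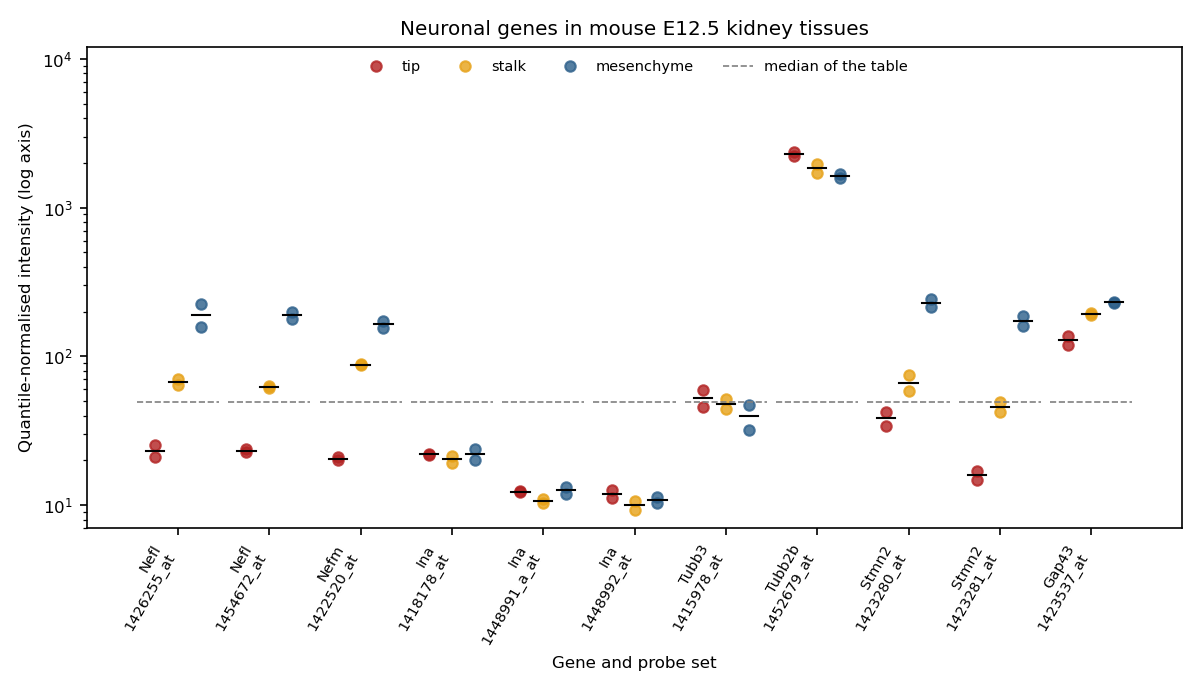
Normalised intensity (log axis, arbitrary units) of the 11 mouse probe sets in ureteric bud tips, ureteric bud stalks and metanephric mesenchyme, with 1 point per array, a bar at the mean and a dashed line at the table median. The Nefl, Nefm and Stmn2 points climb from tip through stalk to mesenchyme without overlap, Gap43 does so over a narrower range, Tubb2b runs the other way, and Tubb3 and Ina stay low with overlapping or close values.

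Nefl, the light subunit on which neurofilament assembly depends, was read by 2 probe sets that gave nearly the same levels. With 1454672_at the intensity was 22.7 and 23.8 in tips and 62.9 and 61.5 in stalks, against 199 and 178 in mesenchyme. With 1426255_at it was 21.1 and 25.3 in tips and 71 and 64.1 in stalks, against 225 and 157 in mesenchyme. No array of any tissue overlapped with another tissue in either probe set. The difference of tip over mesenchyme was -2.38 with both probe sets (SE 0.13 for 1454672_at, limma adjusted p = 1.4e-06, and SE 0.18 for 1426255_at, limma adjusted p = 9.55e-06). The difference of stalk over mesenchyme was -1.38 (SE 0.13, limma adjusted p = 1.33e-04) and -1.29 (SE 0.18, limma adjusted p = 0.00128). Tip over stalk gave -1.09 with 1426255_at (SE 0.18, limma adjusted p = 0.00182), which was called. With 1454672_at it was 1.99-fold, just under the 2-fold limit, and lower in tips (SE 0.13 on the log2 scale, limma adjusted p = 5.66e-04).

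Nefm, the medium subunit, had a single mouse probe set. It read 20 and 21 in tips and 87 and 88.2 in stalks, against 174 and 156 in mesenchyme. The tip level lay close to the lower quartile of all mouse probe sets, 17.8, and the stalk level about midway between the other tissues. Nefm fell by 2.30 in tips relative to mesenchyme (SE 0.13, limma adjusted p = 1.64e-06) and by 1.51 in tips relative to stalks (SE 0.13, limma adjusted p = 4.77e-05). In stalks it averaged 87.6 ± 0.837, against 165 ± 12.7 in mesenchyme (SD, n = 2 each), a 1.74-fold difference that was not called (-0.80, SE 0.13, limma adjusted p = 0.00351).

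Ina, whose product joins neurofilaments in immature neurons, stayed below the table median with all 3 of its mouse probe sets and was not tested. The brightest, 1418178_at, read 22.1 and 21.8 in tips and 19.2 and 21.5 in stalks, against 20.2 and 24 in mesenchyme. The other two lay between 9.35 and 13.2 on every array. Tissue ranges of Ina lay within a few units of each other, at levels near or under the lower quartile. The heavy subunit gene Nefh, not among the 7, was in the same low range, with tissue means from 11.3 in stalks to 13.3 in tips.

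Stmn2 had 2 mouse probe sets. With 1423280_at it read 34.3 and 42.4 in tips and 74.6 and 58.2 in stalks, against 243 and 214 in mesenchyme. With 1423281_at it read 17.1 and 14.8 in tips and 42.1 and 49.2 in stalks, against 188 and 160 in mesenchyme. Mesenchyme was the high tissue on every array, and the tissues did not overlap. With 1423281_at, only mesenchyme reached the filter. Stmn2 fell by 2.17 and 2.57 in tips relative to mesenchyme (SE 0.16 and 0.14, limma adjusted p = 7.89e-06 and 1.63e-06), and by 1.57 and 1.62 in stalks relative to mesenchyme (SE 0.16 and 0.14, limma adjusted p = 1.82e-04 and 9.41e-05). Neither probe set reached 2-fold between tip and stalk, at -0.60 (SE 0.16, limma adjusted p = 0.0199) and -0.95 (SE 0.14, limma adjusted p = 0.00134).

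Gap43 followed the same order over a narrower range. It read 138 and 120 in tips and 195 and 190 in stalks, against 231 and 230 in mesenchyme. The tissues did not overlap, and no comparison reached 2-fold. The difference was -0.77 for tip over mesenchyme (SE 0.10, limma adjusted p = 4.81e-04), -0.53 for tip over stalk (SE 0.10, limma adjusted p = 0.00565) and -0.24 for stalk over mesenchyme (SE 0.10, limma adjusted p = 0.191). Unlike the neurofilament genes and Stmn2, Gap43 stood well above the table median in every tissue.

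Both tubulins differed from this order. Tubb2b, a beta-tubulin of neurons and other immature cells, was bright throughout, at 2224 and 2363 in tips and 1956 and 1707 in stalks, against 1679 and 1587 in mesenchyme. Tips were the high tissue, with no overlap, and the sizes were small: 0.49 for tip over mesenchyme (SE 0.07, limma adjusted p = 4.92e-04), 0.32 for tip over stalk (SE 0.07, limma adjusted p = 0.00649) and 0.16 for stalk over mesenchyme (SE 0.07, limma adjusted p = 0.171), none of them called. Tubb3, the beta-tubulin commonly used to stain neurons, read 59 and 45.9 in tips and 44 and 51.6 in stalks, against 46.9 and 32.2 in mesenchyme. Its tissues overlapped, it passed the filter only through tips, and its largest difference, tip over mesenchyme, was 0.31 (SE 0.17, limma adjusted p = 0.229). Close beta-tubulin copies can share probes, so a level of 1 tubulin gene may hold signal of another.

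**Figure D2:**
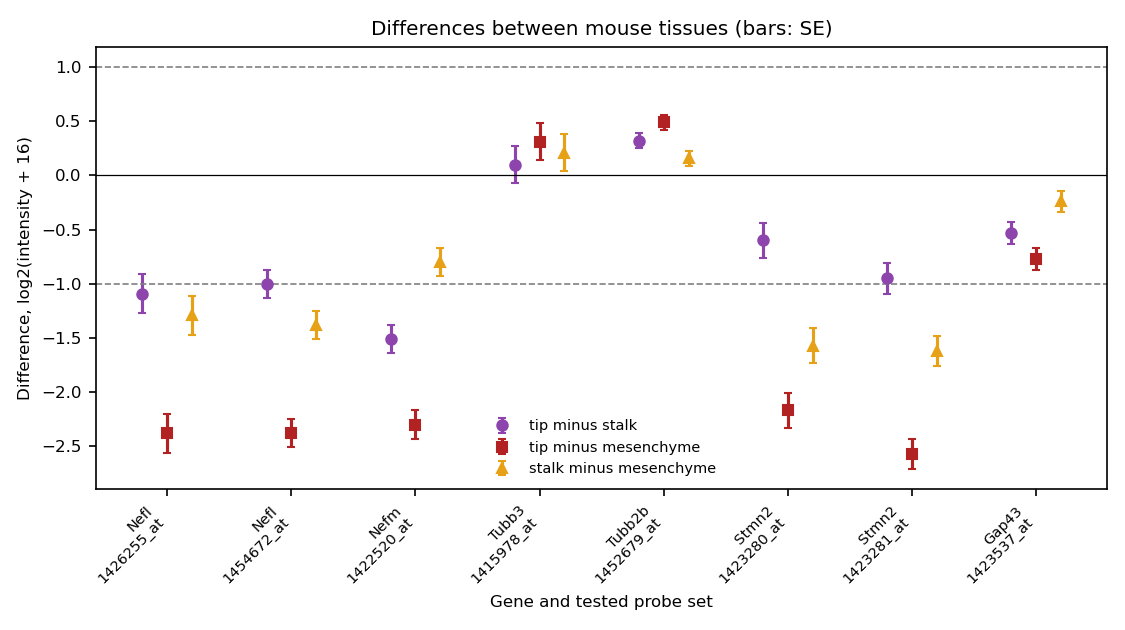
Differences on the log2(intensity + 16) scale, with standard errors from limma, of the 8 tested mouse probe sets for tip over stalk, tip over mesenchyme and stalk over mesenchyme. Dashed lines mark the 2-fold limit, and the Nefl, Nefm and Stmn2 differences of tip over mesenchyme lie between -2.17 and -2.57, while Tubb2b and Tubb3 lie above 0.

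In these bulk pools, fewer cells of a type and less RNA per cell cannot be told apart. How far the stalk level stood from tip (0%) toward mesenchyme (100%) was computed on the intensity scale for the members lower in tips and for listed genes called lower in tips than in mesenchyme. The stalk stood at 14.8% and 18.8% with the Stmn2 probe sets, at 23.6% and 26.4% with those of Nefl, at 46.6% with Nefm and at 62.4% with Gap43. Among other neuron genes it stood at 6.88% with Dcx, 6.98% with Elavl4, 9.62% with Elavl2, 25.3% with Sncg, 37.2% with Crmp1, 65.1% with Gng2, 91% with Dpysl3 and 93.6% with Ncam1. Glial and neural crest genes were far apart, at 2.31% with Ngfr and 119% with Pmp22. So were the sympathetic genes, at 7% with Hand2 and 189% with Isl1, and the other intermediate filaments, at 12.9% with Des and 97.7% with Vim. Nephron progenitor markers spanned 6.41% for Meox1 to 69% for Itga8, endothelial markers 42.4% to 55.6%, erythroid markers 27.5% to 40.6% and macrophage markers 34% to 46.9%. Stromal markers ran from 42.7% for Foxd1 to 295% for Lum, a stromal matrix gene that was higher in stalks than in mesenchyme. Stmn2 and Nefl thus lay within the spans of the other neuron genes and of the progenitor markers. They also lay below all endothelial, erythroid, macrophage and stromal markers given, but Nefl with 1426255_at, at 26.4%, only just under erythroid Alas2, at 27.5%. That gap is small beside the spread of this Nefl probe set in mesenchyme, 225 and 157. Nefm lay within the spans of the other neuron genes and of the progenitor, endothelial, macrophage and stromal markers, so it matched no single class. Dcx, Elavl4, Sncg and Hand2, like Stmn2 with 1423281_at, reached the filter of 49.5 only through mesenchyme. Their stalk levels were therefore bound to be under 49.5, so their low positions are partly set by the filter and are a description only. Differences between genes in this measure were not tested.

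**Figure D3:**
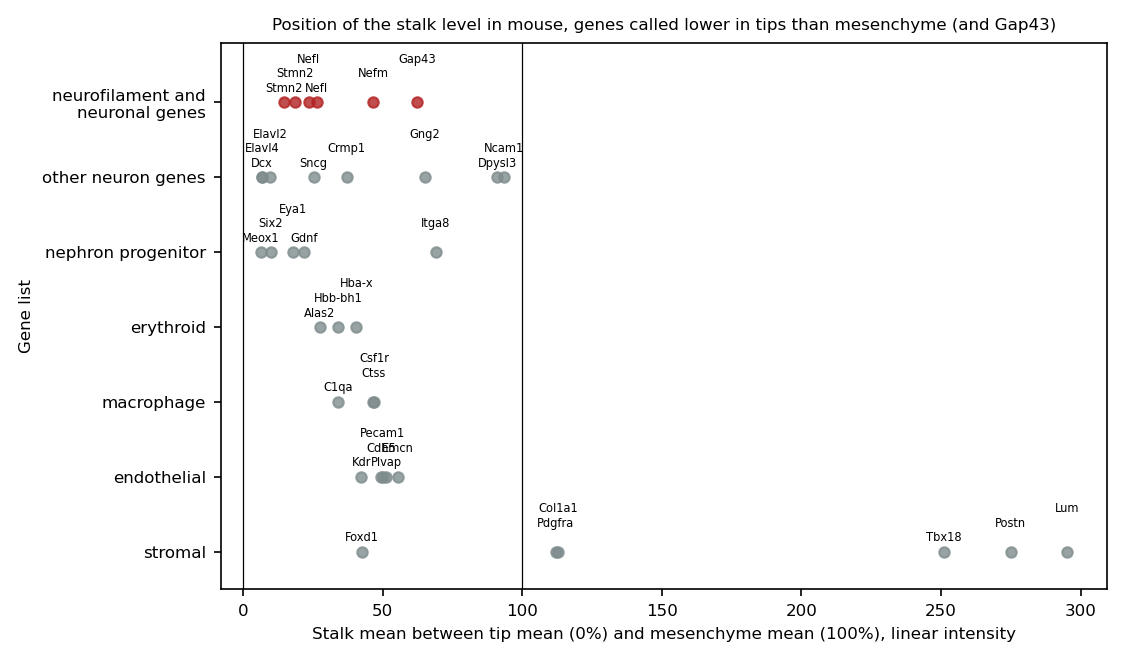
Position of the mouse stalk level between tip (0%) and mesenchyme (100%) for the members and for other neuron genes and cell type markers called lower in tips than in mesenchyme, 1 point per probe set from tissue means of 2 arrays. Stmn2 and Nefl sit at 14.8% to 26.4%, left of Nefm at 46.6% and Gap43 at 62.4%, and several stromal markers lie past 100%.

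Other cell classes changed between the same pools. The sum of 5 endothelial markers was 476 to 493 in tips and 1179 to 1237 in stalks, against 1864 to 1907 in mesenchyme. That of 3 erythroid markers was 1435 to 1473 in tips and 4101 to 4147 in stalks, against 8525 to 8583 in mesenchyme. That of 4 macrophage markers was 188 to 237 in tips and 438 to 458 in stalks, against 730 to 748 in mesenchyme. No marker was at 0 on any array, but neither were dim probe sets such as those of Ina. A value above 0 therefore does not show that a cell type was present. These lists run in the same order as Nefl, Nefm and Stmn2, and their part in the neuronal differences was not tested.

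Further neuron genes were mixed between tip and mesenchyme. Of 35 listed, 30 were tested, and 4 rose and 8 fell in tips relative to mesenchyme, with a list median of -0.42 and with 8.16% of all tested probe sets called there. The largest changes were in L1cam, a neural adhesion molecule also known from the ureteric bud, at 545 ± 19 in tips against 90.3 ± 1.79 in mesenchyme (2.40, limma adjusted p = 7.38e-08), and in Crmp1, a growth cone collapse mediator, at 65.1 ± 2.04 in tips against 282 ± 2.26 in mesenchyme (-1.88, limma adjusted p = 1.68e-06). Uchl1, a neuronal ubiquitin hydrolase, was higher in tips, at 451 ± 73.8 against 121 ± 17.1 in mesenchyme (1.77, limma adjusted p = 9.62e-06). Dcx, the microtubule protein doublecortin of migrating young neurons, was lower in tips, at 24.1 ± 3.6 against 116 ± 20.1 in mesenchyme (-1.72, limma adjusted p = 3.56e-05). Only mesenchyme reached the filter for Dcx, so its test is no independent evidence of its direction. Genes of the list therefore did not move one way, and L1cam and Uchl1 ran opposite to the neurofilament genes. Snap25, a synaptic vesicle fusion protein, was under the table median in every tissue, at a mean of 8.87 in tips against 11.3 in mesenchyme, and was not tested. Prph, the peripheral neuron filament peripherin, was tested and not called, at 61.7 in tips against 48.6 in mesenchyme (0.25, limma adjusted p = 0.343).

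Between stalk and mesenchyme, 3 of the 30 rose and 2 fell in stalks, with a list median of -0.07 and with 2.77% of all tested probe sets called there. Dcx was lower in stalks, at 30.5 ± 2.29 against 116 ± 20.1 in mesenchyme (-1.50, limma adjusted p = 2.32e-04). It was tested only through mesenchyme, where it is high, so sharing the direction of Nefl and Stmn2 is a description only. L1cam (1.62, limma adjusted p = 2.78e-06), the surface glycoprotein gene Thy1 (1.57, limma adjusted p = 4.99e-05) and the neuronal enolase gene Eno2 (1.39, limma adjusted p = 5.14e-04) were higher in stalks. Between tip and stalk, 2 rose and 3 fell in tips, with a list median of -0.20 and with 4.59% of all tested probe sets called there. Thy1 (-2.01, limma adjusted p = 7.06e-06), Dpysl3, a growth cone collapse mediator (-1.57, limma adjusted p = 4.35e-06), and Ncam1, a neural adhesion molecule also used by kidney mesenchyme (-1.22, limma adjusted p = 1.34e-06), were lower in tips, and Uchl1 was higher (1.10, limma adjusted p = 3.18e-04), though at 0.94, under the 2-fold limit, without the first tip array.

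**Figure D4:**
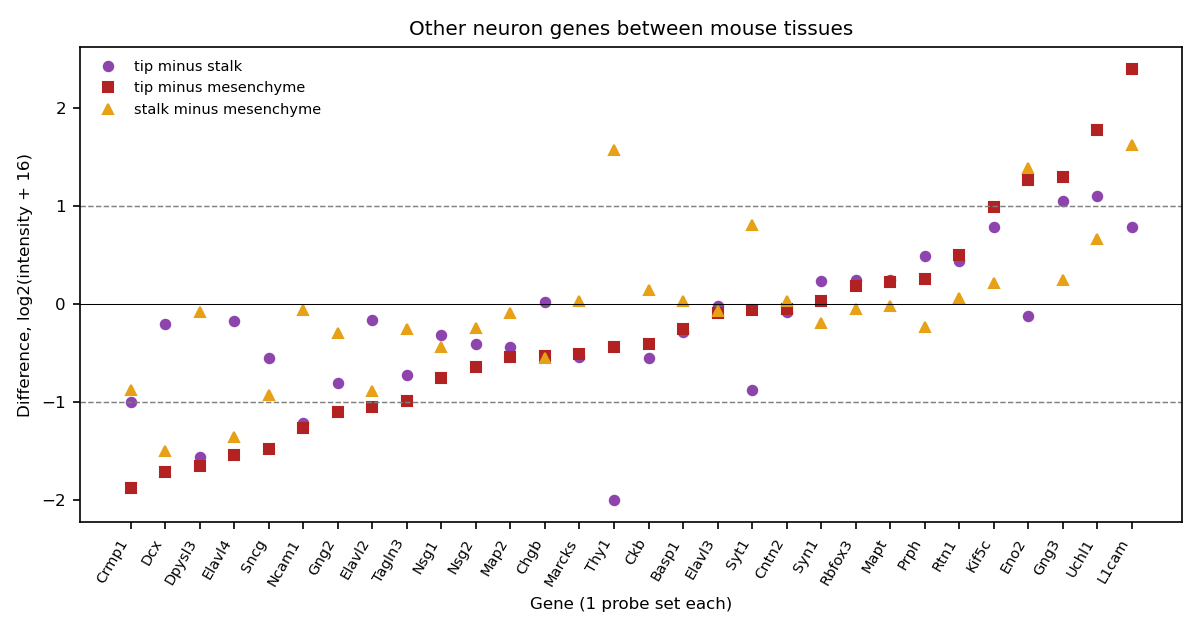
Differences on the log2(intensity + 16) scale of the 30 tested other neuron genes in mouse, with circles for tip minus stalk, squares for tip minus mesenchyme and triangles for stalk minus mesenchyme, which share arrays, and dashed lines at the 2-fold limit. The squares run from -1.88 for Crmp1 to 2.40 for L1cam, and Thy1 has the lowest circle, at -2.01, and a high triangle, at 1.57.

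Of genes of sympathetic neurons and chromaffin cells, the transcription factors Isl1 and Hand2 were called. The transcription factor Phox2a and the catecholamine enzymes were not. Phox2a averaged 50.3 in tips and 46.4 in stalks, against 50.6 in mesenchyme (limma adjusted p = 0.988 for tip over mesenchyme). Of 19 listed, 11 were tested, and 2 fell and none rose in tips relative to mesenchyme, by limma, with 8.16% of all tested probe sets called there. These were Isl1, a transcription factor of sympathetic and other lineages, at 22.8 ± 6.79 in tips against 170 ± 2.01 in mesenchyme (-2.27, limma adjusted p = 3.49e-06), and Hand2, a transcription factor of sympathetic and limb or heart mesenchyme (-1.13, limma adjusted p = 0.00172), which was at -0.84 without the first tip array. Hand2 reached the filter only through mesenchyme, so its test is no independent evidence of its direction. Isl1 was highest in stalks, at 301 ± 9.18, and was lower in tips than in stalks (-3.04, limma adjusted p = 1.21e-06). None of the 11 was called between stalk and mesenchyme by limma, with 2.77% of all tested probe sets called there. Of the 11, 2 had an adjusted p under 0.05 and 3 passed it before adjustment. The catecholamine enzymes were not called: Th, tyrosine hydroxylase, averaged 29.6 in tips and 31.2 in stalks, against 52.1 in mesenchyme (-0.58 for tip over mesenchyme, limma adjusted p = 0.0173), and Dbh, dopamine beta-hydroxylase, averaged 153 in tips and 139 in stalks, against 200 in mesenchyme (-0.36 for tip over mesenchyme, limma adjusted p = 0.248). Th, like Hand2, reached the filter only through mesenchyme, so its p-value is no independent evidence of its direction. The summed level of the list was 967 to 1273 in tips and 1527 to 1629 in stalks, against 1589 to 1725 in mesenchyme.

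Glial and neural crest genes ran in both directions. Of 14 listed, 8 were tested, and 2 rose and 2 fell in tips relative to mesenchyme, with 8.16% of all tested probe sets called there. Erbb3, a neuregulin receptor of Schwann cell precursors and of many epithelia, was higher in tips, at 1218 ± 21.4 against 47.8 ± 9.62 in mesenchyme (4.28, limma adjusted p = 1.18e-08), while Pmp22, a myelin gene also active in mesenchyme (-2.03, limma adjusted p = 6.86e-05), and the neurotrophin receptor gene Ngfr (-1.35, limma adjusted p = 3.93e-05) were lower. The other rise was in the myelin gene Mbp (1.35, limma adjusted p = 6.45e-06). Ngfr averaged 104 in stalks against 279 in mesenchyme (-1.30, limma adjusted p = 1.45e-04), while Erbb3 (3.15, limma adjusted p = 2.73e-07), the endothelin receptor gene Ednrb (1.37, limma adjusted p = 2.36e-06) and the Schwann cell factor gene Egr2 (1.06, limma adjusted p = 9.89e-05, and 0.96 without the second mesenchyme array) were higher in stalks. Between tip and stalk, Erbb3 was higher in tips (1.13, limma adjusted p = 8.81e-05), and Pmp22 (-2.22, limma adjusted p = 6.87e-05) and Ednrb (-1.33, limma adjusted p = 1.78e-06) were lower. Sox10, the defining factor of neural crest and glia, was not called, at 95.6 ± 0.377 in tips and 96.4 ± 8.19 in stalks, against 127 ± 13.6 in mesenchyme (-0.36 for tip over mesenchyme, limma adjusted p = 0.0663). The summed level of the list was 2562 to 2627 in tips and 2658 to 2753 in stalks, against 1475 to 1510 in mesenchyme.

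The other intermediate filament genes separated epithelium from mesenchyme. Of 10 tested, 3 rose and 2 fell in tips relative to mesenchyme, beside shares over all tested probe sets of 8.16% there, 2.77% for stalk over mesenchyme and 4.59% for tip over stalk. The simple-epithelial keratin Krt8 averaged 3356 ± 31.3 in tips and 2581 ± 4.49 in stalks, against 84 ± 5.36 in mesenchyme (5.08 for tip over mesenchyme, limma adjusted p = 3.98e-10). Its partner Krt18 gave 4.94 (limma adjusted p = 4.85e-09). The muscle filament gene Des was lower in tips (-1.35, limma adjusted p = 3.82e-05) and in stalks (-1.08, limma adjusted p = 4.24e-04) than in mesenchyme. In stalks 3 rose and 1 fell, Krt19 (1.39, limma adjusted p = 4.04e-04) with the other keratins, and Vim was the 1 called between tip and stalk (-1.96, limma adjusted p = 2.8e-07). Vim, the vimentin gene of mesenchymal cells, averaged 1198 ± 85.8 in tips and 4708 ± 96.7 in stalks, against 4792 ± 495 in mesenchyme. The stalk level of Vim was thus at that of mesenchyme (-0.02, limma adjusted p = 0.888), where the stalk levels of Nefl, Nefm and Stmn2 were under it.

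Likeness to each gene was measured as the root mean squared difference of centred log2 values over the 6 mouse arrays, among 21382 tested probe sets with 1 symbol. Nearest to Nefl were Gas1 at 0.14, G6pc2 at 0.14 and Trim63 at 0.15. Nearest to Stmn2 were Ajap1, Cpa1 and Trim63, each at 0.17. Nearest to Nefm were Tent5a, Nr2f2 and Colec12, each at 0.08. Gap43 was most like Npl, Ptn and Ip6k2, each at 0.03, and Tubb2b most like Slc19a2, Uhrf1bp1l and Dlg3, each at 0.04. Tubb3 was most like Nup214 at 0.03, Hnrnpab at 0.05 and Oscp1 at 0.06.

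In rat, the neurofilament genes gave no tested value, and the probe sets that were tested, for Tubb2b and Gap43, were higher in buds. Of the 11 rat probe sets, 3 reached the median of their table (111, 118 and 115 for the first design, B and C). On the first design both tested probe sets were called higher in buds, where 5.79% of all tested probe sets were called, 2.77% higher and 3.02% lower. On design B the 1 tested was called higher, where 5.81% of all were called, 3.06% higher and 2.74% lower. None of the 2 on design C was tested, where limma called 4.63% of all tested, 2.23% higher and 2.4% lower. A probe set that was tested only because buds were bright had to differ, so these counts too are a description.

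Tubb2b on the first design, with X03369_s_at, read 4312 and 4440 in buds, against 802 and 653 in mesenchyme. It rose in buds by 2.57 (SE 0.14, limma adjusted p = 1.47e-04), a 5.94-fold difference. On design B, rc_AA899219_i_at read 1163 and 519 in buds, against 82.8 and 56.7 in mesenchyme, a difference of 3.23 (SE 0.36, limma adjusted p = 0.0029). That probe set averaged 69.8 in mesenchyme, under the design B filter of 118, and so was tested only through buds, where it is high. Buds were the high tissue in both, with no overlap, and the second bud array, whose control ratio stood apart, was the lower one on design B. Without that array the differences were 2.56 for X03369_s_at and 3.75 for rc_AA899219_i_at. The third Tubb2b probe set, X03369_i_at, carries the accession of the first and disagreed with it, at 15.7 and 11.6 in buds against 14.8 and 13.6 in mesenchyme, far under the median and not tested. By Affymetrix naming, probe sets with the suffix _s_at hold probes that match several transcripts, so the beta-tubulin copies may not be separated.

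Gap43 in rat, with L21192_at, read 275 and 444 in buds, against 108 and 108 in mesenchyme. Both bud arrays were above both mesenchyme arrays, and the higher bud value came from the second bud array, with its Gapdh ratio of 4.43. The difference was 1.56 (SE 0.22, limma adjusted p = 0.00596), or 2.95-fold, which was called. Its mesenchyme mean of 108 was under the filter of 111, so it was tested only through buds, where it is high, and the test is no independent evidence of its direction. The difference was 1.22 without the second bud array and 1.89 without the first bud array.

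**Figure D5:**
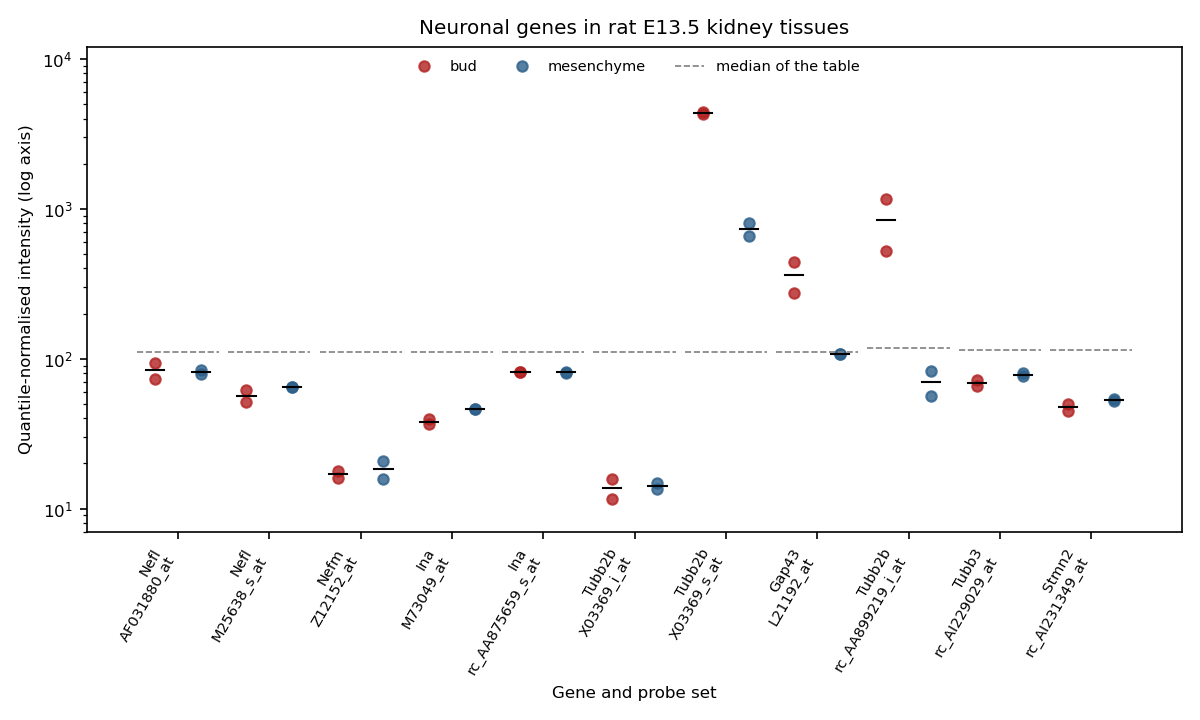
Normalised intensity (log axis, arbitrary units) of the 11 rat probe sets in ureteric buds and metanephric mesenchyme, with 1 point per array, a bar at the mean and a dashed line at the median of the table. Of the 11, Tubb2b with X03369_s_at and rc_AA899219_i_at and Gap43 with L21192_at stand above mesenchyme by 2.57, 3.23 and 1.56, and those not tested lie near or under 100 in both tissues.

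The rat neurofilament probe sets lay under the filter in both tissues. Nefl read 73.7 and 93.3 in buds against 78.9 and 83.4 in mesenchyme with AF031880_at, and 51.4 and 61.4 in buds against 64.5 and 64.5 in mesenchyme with M25638_s_at. Nefm read 17.8 and 16 in buds against 20.9 and 15.8 in mesenchyme. Ina read 81.2 and 81.6 in buds against 81.6 and 80.5 in mesenchyme with rc_AA875659_s_at, and 39.5 and 36.6 in buds against 46.3 and 45.9 in mesenchyme with M73049_at. Nefl with AF031880_at, Nefm, and Ina with rc_AA875659_s_at overlapped between the tissues, and the other two were slightly lower in buds. On design C, Tubb3 read 71.6 and 66.1 in buds against 79.6 and 76.9 in mesenchyme, and Stmn2 read 44.5 and 50.2 in buds against 51.8 and 53.8 in mesenchyme. Both were lower in buds on all arrays by a few units, at levels where no test was made.

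Few of the further rat neuronal genes were called. Over all tested probe sets, 5.79%, 5.81% and 4.63% were called on the first design, B and C. Of 14 other neuron genes tested on the first design none was called by limma (3 at an unadjusted p under 0.05), and of 8 on design B none (3 at an unadjusted p under 0.05). Uchl1 was among them, at 0.60 on the first design (limma adjusted p = 0.199) and 0.39 on design B (limma adjusted p = 0.0754). Its probe sets on designs B and C, like that of Foxd3 below, are gene-family ones. Of 4 on design C, Uchl1 rose in buds, at 2572 ± 201 against 1115 ± 1.45 in mesenchyme (1.19, limma adjusted p = 0.00529), the direction it had in mouse tips, but it was not called without either mesenchyme array (1.16 and 1.20). Npy, a peptide of sympathetic neurons, rose in buds on the first design, at 472 ± 91.4 against 211 ± 12.4 in mesenchyme (1.09, limma adjusted p = 0.00768), and was at 0.89, under the 2-fold limit, without the second bud array, and not called without the first mesenchyme array (1.05). Th was level, at 178 ± 9.43 in buds against 176 ± 27.9 in mesenchyme (0.02, limma adjusted p = 0.956). Sox10 and Dbh were below the median in both tissues. Foxd3, a neural crest factor read by a gene-family probe set, fell in buds, at 253 ± 34.6 against 905 ± 62.6 in mesenchyme (-1.78, limma adjusted p = 5.73e-04). On design B, Mbp rose in buds by 1.03 (limma adjusted p = 0.00572), and was at 0.92 without the second bud array. It averaged 141 in buds against 60.5 in mesenchyme, and so was tested only through buds, where it is high. Among 7 other intermediate filaments on the first design 2 rose and 3 fell, with Krt18 (4.59, limma adjusted p = 2.7e-05) and Krt8 (1.73, limma adjusted p = 0.0155) higher in buds, and Vim (-2.86, limma adjusted p = 1.96e-04) and Des (-1.21, limma adjusted p = 0.00474) lower. Krt18 and Krt8 too were tested only through buds, with means of 24.4 and 88.1 in mesenchyme.

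Set side by side, the Tubb2b difference from mesenchyme was 2.57 and 3.23 in rat buds with the tested probe sets, while the untested X03369_i_at overlapped between the tissues, and it was 0.49 in mouse tips and 0.16 in mouse stalks, neither of them called. The Gap43 difference was 1.56 in rat buds, which was called, and -0.77 in mouse tips and -0.24 in mouse stalks, neither of them called. The species were read on different arrays, at different embryonic days and with differently divided buds, and the difference between them was not tested.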

How the data were processed

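Per the labels, 1 ug of total RNA from pooled tissue was labelled by standard Affymetrix procedures, with 2 labellings per tissue. The deposited tables hold 1 linear intensity per probe set and array, and how the authors summarised and scaled them is not given in the sources used here. Probe sets were named through GEO's platform annotation, in which 34945 mouse probe sets have 1 symbol, 932 several and 9160 none. Of 18178 rat probe sets with 1 symbol, 18122 matched a RefSeq GRCr8 gene, and none changed its symbol. Each of the 4 tables was quantile normalised, control probe sets were removed, and log2(intensity + 16) was tested with limma 3.58.1 (lmFit, eBayes with trend) in R 4.3.3, with Benjamini-Hochberg adjustment over all tested probe sets of the table: 23937 in mouse and 4629, 4667 and 4666 in rat. All probe sets of the 7 genes are reported. Of each further list, 1 probe set per gene, the brightest, was used, and at most 4 called genes per comparison are named, by size, with Sox10, Th and Dbh, and the 3 nearest genes by likeness. Nefh, Snap25, Prph, Phox2a, the stathmins and the further genes given by stalk position were named after their values were seen. The members and lists were chosen with earlier results of these data known. The number of arrays limits the precision, and the model was tested on simulated data. Alternatives were the values as deposited, a common 2% trimmed mean, a pseudocount of 64, no filter, no intensity trend, no fold limit, the replicate number as a block, and leaving out each array.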

Additional observations from a re-analysis of the deposited data

Results flagged for a closer look

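Gap43 had differences of opposite sign in the mouse and the rat. In mouse the difference from mesenchyme was -0.77 in tips (limma adjusted p = 4.81e-04, under 2-fold) and -0.24 in stalks (limma adjusted p = 0.191), neither of them called. In rat it was 1.56 in buds, which was called, with a probe set that reached the filter only through buds. It was 1.22 without the second bud array, whose Gapdh ratio was 4.43, and 1.89 without the first. Every bud array lay on one side of every mesenchyme array of its species. The difference between the species was not tested.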

How the results depend on the processing

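With a pseudocount of 64 the count of called probe sets of the 7 genes went to 0 for tip over stalk (2 in the report) and to 2 for stalk over mesenchyme (4 in the report). Nefm, at -0.84, and Nefl with 1426255_at, at -0.59, lost their tip over stalk calls, and both Nefl probe sets, the smaller at -0.94, lost their stalk over mesenchyme calls. With the adjusted p alone, 7 probe sets passed for tip over stalk. Leaving out 1 array gave 2 to 3 called for tip over stalk, 5 for tip over mesenchyme, 4 for stalk over mesenchyme, and 2, 1 and 0 on the rat designs. No difference of the 7 genes reversed in 342 values under the alternatives, of which 327 kept their side of the threshold. Leaving out the filter, the intensity trend or the fold limit, or adding the block, leaves the size of a difference unchanged. Values under those settings could therefore not reverse, and no call can be lost by leaving out the fold limit. With the replicate number as a block the calls were 2, 5, 4, 2, 1 and 0, and no call changed. Same-numbered arrays deviated together (0.42 to 0.57 in mouse, 0.22 to 0.31 in rat), but with 2 numbers they are taken to share only a number. Over all probe sets, the count for tip over stalk was 1098, against 671 with a pseudocount of 64 and 6847 without the fold limit. For tip over mesenchyme it was 1954, against 1266 and 8063, and for stalk over mesenchyme 663, against 392 and 3131. On the rat designs, leaving out the fold limit gave 538, 816 and 522, against 268, 271 and 216. A pseudocount of 64 gave 172 on design B, leaving out the first bud array gave 477 on the first design and 361 on design C, and leaving out a mesenchyme array gave 76 or 82 on design C. Among named list genes, a pseudocount of 64 took Uchl1 in tip over stalk to 0.96 and Tubb2a to -0.91. In stalk over mesenchyme it took Eno2 to 0.86, Dcx to -0.93, Egr2 to 0.89, Des to -0.87 and Krt19 to 0.86. In tip over mesenchyme it took Hand2 to -0.64, Tubb4a to 0.89, Elavl2 to -0.80, Elavl4 to -0.94, Sncg to -0.86 and Gng2 to -0.95. In rat it took Npy to 0.95 and Mbp on design B to 0.72. These were then under the 2-fold limit.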

Other observations

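Tubulin genes outside the 7 were called in both directions. Over all tested probe sets, 4.59% were called for tip over stalk, 8.16% for tip over mesenchyme and 2.77% for stalk over mesenchyme. Of 9 other tubulin genes tested in mouse, Tuba4a, an alpha-tubulin, was higher in tips, at 771 ± 6.98 against 181 ± 26.5 in mesenchyme (2.01, limma adjusted p = 4.65e-07), and in stalks, at 434 ± 12.4 (1.20, limma adjusted p = 3.78e-05). Tubb4a, a beta-tubulin of brain, was also higher in tips than in mesenchyme (1.12, limma adjusted p = 4.9e-04, and 0.89 without the first mesenchyme array). Tubb6 (-1.37, limma adjusted p = 4.18e-05) and Tubb2a, the near copy of Tubb2b (-1.03, limma adjusted p = 1.21e-05, and -0.99 without the second tip array), were lower in tips than in stalks. Tubb2a averaged 246 ± 9.02 in tips and 521 ± 21.6 in stalks, against 362 ± 9.79 in mesenchyme, an order that Tubb2b did not share. None of Stmn1, Stmn3 and Stmn4 was called in any mouse comparison by limma, which for 3 genes is near the shares over all. For tip over stalk, 0 had an unadjusted p under 0.05. For tip over mesenchyme 2 had, and 2 also had an adjusted p under 0.05. For stalk over mesenchyme 2 had, and 1 also had an adjusted p under 0.05. Stmn1, a stathmin of dividing cells, was bright in all tissues, at 8181 ± 64.1 in tips and 8542 ± 108 in stalks, against 9671 ± 21.8 in mesenchyme.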
